A study of Mus musculus with 24 samples.

Results

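Transcript levels of 10 circadian clock genes (Arntl, Clock, Per1, Per2, Per3, Cry1, Cry2, Nr1d1, Nr1d2 and Dbp) were examined in primary mouse adipocytes after knockdown of the long noncoding RNA Ctcflos. They were taken by name from a table of 52089 gene symbols, and each was read from its RefSeq entry with the highest mean RPKM over 24 libraries. RPKM are read numbers divided by the length of the transcript and by the mapped reads of the library. The cells were preadipocytes from the stromal vascular fraction of inguinal white fat of male 129SvEv mice aged 5 to 6 weeks, grown and differentiated with rosiglitazone into brite cells, white adipocytes with features of brown ones. All cells were transfected 1 day into differentiation with a gapmer at 50 nM, a short antisense strand with locked nucleic acid ends through which RNase H cuts the RNA it pairs with. In the KD groups the gapmer was directed at Ctcflos, and in the NC groups it was a nontargeting control. RNA was harvested 24 h after transfection without a change of medium, or at 72 h, after fresh medium had been given at 24 h. KD and NC at these times made 4 groups with 6 libraries each, all cultures of cells from 1 mouse strain and all exposed to rosiglitazone, insulin and thyroid hormone. The induction medium had also held the glucocorticoid dexamethasone, isobutylmethylxanthine and indomethacin. Neither the labels nor the methods give the hour of harvest.

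The mammalian clock is a feedback loop of transcription. Arntl (also called Bmal1) and Clock form a dimer that binds E-box elements and drives the Per, Cry, Nr1d1, Nr1d2 and Dbp genes. PER and CRY proteins then inhibit this dimer, while the nuclear receptors REV-ERB alpha and beta, the products of Nr1d1 and Nr1d2, repress Arntl through ROR elements. Dbp is an output gene, whose protein acts at D-box elements such as those of the Per genes. Fat tissue holds such a clock, and cultured cells that are not synchronised drift apart in phase, so that a level averaged over a culture need not show a cycle. Whether the cells of these cultures shared a phase was not tested.

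Promoter windows from RefSeq (build GRCm38.p6; 250 bases before to 50 bases after each annotated start) were found for 9 of the 10 genes, all but Per2, in 13 windows. They were searched on both strands for the E-box CACGTG, the E-prime box CACGTT, the D-box and the element bound by ROR and REV-ERB. Of all 32851 windows in the table, 7.15% held an E-box, 4.68% an E-prime box, 1.06% a D-box and 0.384% a ROR and REV-ERB element. Matches were found for 6 clock genes. The 250 bases before the start are shown for Per3, Cry1 and Nr1d1, which are the genes called between 24 h and 72 h in control cells that held a match, with the matches in capitals (an E-prime box read on the other strand appears as AACGTG).
Per3 (chr4:151044666-151044915, minus strand): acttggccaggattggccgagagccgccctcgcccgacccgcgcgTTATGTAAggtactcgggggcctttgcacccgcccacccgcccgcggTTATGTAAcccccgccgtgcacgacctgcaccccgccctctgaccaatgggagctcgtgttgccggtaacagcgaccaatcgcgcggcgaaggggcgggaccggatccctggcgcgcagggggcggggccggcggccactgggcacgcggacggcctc
Cry1 (chr10:85185055-85185304, minus strand): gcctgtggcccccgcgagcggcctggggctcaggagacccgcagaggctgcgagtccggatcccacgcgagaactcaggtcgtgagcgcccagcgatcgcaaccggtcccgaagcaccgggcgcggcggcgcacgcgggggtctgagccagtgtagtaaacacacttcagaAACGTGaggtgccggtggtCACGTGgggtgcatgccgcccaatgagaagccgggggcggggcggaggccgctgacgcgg
Nr1d1 (chr11:98775378-98775627, minus strand): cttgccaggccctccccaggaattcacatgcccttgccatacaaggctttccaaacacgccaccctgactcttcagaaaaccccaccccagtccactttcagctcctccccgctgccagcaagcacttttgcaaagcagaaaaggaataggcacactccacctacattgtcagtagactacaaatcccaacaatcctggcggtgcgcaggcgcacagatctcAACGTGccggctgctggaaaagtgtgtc
The Per3 window held the D-box TTATGTAA at 2 positions, which began at -205 and -158 from the start. The Cry1 window held an E-box at -60 and an E-prime box at -79, and the Nr1d1 window an E-prime box at -28. Among the others, Per1 had an E-box and Cry2 an E-prime box, each at -166. One of the Arntl windows held a ROR and REV-ERB element, AAAGTAGGTCA, on chromosome 7 from 113207537 to 113207547. The windows of Clock, Nr1d2 and Dbp held none of the 4 motifs.

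Depth ranged from 1391832 to 5423840 reads per library with a median of 3945867, and KD 24 h replicate 6 was the shallowest. Read numbers recovered from the RPKM were whole for 74.5% of the values checked in NC 72 h replicate 6. In the other libraries this share was 93.6% or more, and the cause was not tested. Replicates 2 and 3 of NC 72 h differed by less than the sampling noise and were counted as 1 sample, which left n = 5 in that group and 23 samples in all. Ctcflos was near the limit of detection in this assay. The entry of the isoform that the gapmer is directed at (AK041254) measured 0, 0.0942 and 1.03 scaled RPKM (lowest, median, highest) in KD 24 h against 0.182, 0.440 and 0.896 in NC 24 h, and 0, 0 and 0.484 in KD 72 h against 0.130, 1.61 and 2.67 in NC 72 h. The groups overlapped at both times. The Ctcflos entry with the highest mean, AK079954, belongs to another isoform and was too low to be fitted. It measured 0 to 0.898 in KD 24 h against 0.726 to 3.01 in NC 24 h, which overlapped, and 0 to 0.840 in KD 72 h against 1.62 to 4.15 in NC 72 h, which did not. The labelled cell type was checked against its markers. The summed level of 6 adipocyte genes (Adipoq, Fabp4, Plin1, Pparg, Lpl, Cidec) was 26230 scaled RPKM or more in every sample, while 4 endothelial genes summed to 1.43 at most and 4 muscle genes to 0.950 at most, with Myod1 at 0 throughout. Brite markers and some of the adipocyte markers moved with the knockdown. The adipocyte sum, most of which was Fabp4 (22500 to 46940), ran from 37160 to 49900 in KD 24 h against 50450 to 52920 in NC 24 h, and from 26230 to 35770 in KD 72 h against 36570 to 48250 in NC 72 h. Adipoq lay at 1253 to 2528 in KD 24 h and 2545 to 2765 in NC 24 h, and at 766 to 1485 in KD 72 h and 1894 to 2024 in NC 72 h, without overlap. Cidec had means of 2117 in KD 72 h and 1975 in NC 72 h, and Pparg overlapped at 88.4 to 103 and 93.9 to 129. The sum of 4 brite genes (Ucp1, Cidea, Cox7a1, Elovl3) ran from 320.2 to 474 against 453 to 881 at 24 h and from 376 to 726 against 1254 to 2117 at 72 h. The sum of 5 stromal progenitor genes lay at 27.3 to 39.6 in KD 24 h, 29.7 to 35.0 in NC 24 h, 38.8 to 54.6 in KD 72 h and 41.9 to 59.0 in NC 72 h, and that of 5 macrophage genes between 2.59 and 29.7 in all samples. Single genes of these lists did not overlap between KD and NC at 72 h. Csf1r lay at 3.17 to 8.10 in KD and 1.97 to 2.98 in NC, Lyz2 at 0.217 to 3.89 and 4.89 to 26.1, and the progenitor gene Cd34 at 1.06 to 2.70 and 0.15 to 0.736. The macrophage markers Adgre1 and Ptprc were at 0.656 and 0.343 or less in every sample. The part of these shifts in the clock gene values was not tested, and in bulk RNA fewer cells of a type and less RNA per cell cannot be told apart.

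Levels are given as scaled RPKM, which divide by transcript length, although reads came from the 3′ ends of transcripts, so that long transcripts are understated relative to short ones. Per3 was the most abundant of the 10 genes at a mean of 21.2 scaled RPKM over the 23 samples, followed by Dbp at 7.58. A middle group held Nr1d1 (2.30), Cry2 (2.08), Arntl (1.88), Cry1 (1.84), Clock (1.80), Per1 (1.36) and Nr1d2 (1.12), and the ranges of these 7 genes over samples overlapped. Per2 was lowest at 0.189, with 0 to 11 reads per sample. Apart from Per3, with a median of 432 reads, the genes rested on few reads, with medians of 16 for Arntl, 18 for Nr1d2, 23 for Nr1d1, 48 for Dbp and 49 for Clock. Dbp (1678 bases) and Clock (7478 bases) were thus level in reads, and the place of Dbp in this order rests on the division by length.

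**Figure D1:**
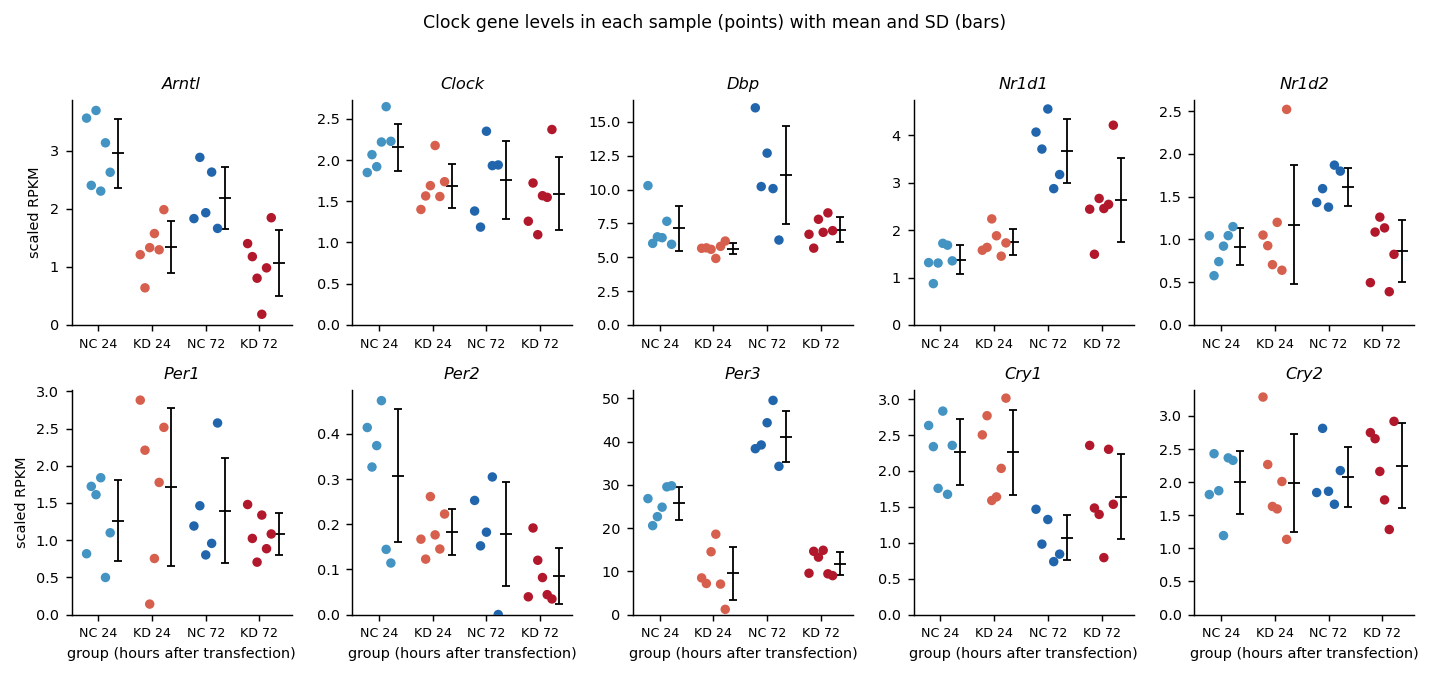
Scaled RPKM of the 10 clock genes in each sample (points; y axis from 0) by group, with the mean and SD of the group (black bars; n = 6, and n = 5 in NC 72 h). Per3 lies at 20.6 to 29.8 in NC 24 h and at 34.3 to 49.5 in NC 72 h, above every KD sample of the same time.

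To ask how the knockdown and the time in culture bear on the clock genes, KD was compared with NC at each time and NC 72 h with NC 24 h in limma fits over all transcript entries of the table, with Benjamini-Hochberg adjusted p under 0.05 as the call. In each fit 9 of the 10 genes were tested and Per2 was below the filter on low values. Differences are on the scale of log2(scaled RPKM + 0.1), which understates changes of low genes. At 24 h, Arntl and Per3 were lower in KD and no clock gene was higher, so that 2 of 9 were called. This was close to the background, as 22.6% of the 52022 entries tested were called (10.6% higher and 12.0% lower). At 72 h, Per3 and Nr1d2 were lower in KD and none was higher, again 2 of 9 against 22.2% of the 54541 entries (10.2% higher and 12.0% lower). Between 24 h and 72 h in control cells Per3, Nr1d1 and Nr1d2 rose and Cry1 fell, 4 of 9 against 9.08% of 52863 entries (4.39% higher and 4.69% lower). The median log2 difference of the 9 genes was -0.04 at 24 h, -0.51 at 72 h and 0.14 over time in control cells, against -0.02, 0.01 and 0 over all entries. Both comparisons at 24 h share the NC 24 h samples, and both at 72 h the NC 72 h samples. The study calls its replicates biological, and neither it nor the labels say whether they were separate cultures or animals, so the p-values measure the spread between these samples.

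**Figure D2:**
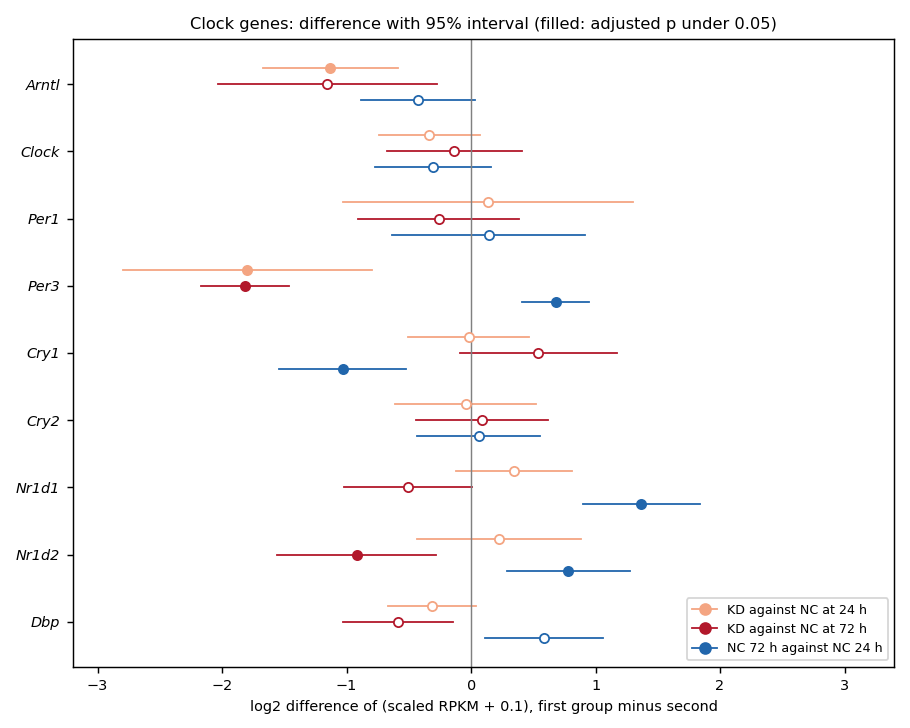
Log2 difference (x axis, first group minus second) of the 9 clock genes tested, with its 95% interval, for KD against NC at 24 h and 72 h and for NC 72 h against NC 24 h. Filled points have an adjusted p under 0.05, and Per3 is the gene filled in all 3 comparisons.

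Among the activators of the loop, Arntl (chromosome 7 from 113207465 to 113314126, plus strand, GRCm38 as for all positions) was lower in KD cells at 24 h and Clock did not pass the test. In NC 24 h, Arntl measured 2.31 scaled RPKM in the lowest, 2.89 in the median and 3.70 in the highest sample, and in KD 24 h 0.639, 1.31 and 1.99. Every KD sample thus lay below every NC sample. The mean was 1.34 ± 0.444 (SD, n = 6) in KD and 2.96 ± 0.598 (SD, n = 6) in NC, and Arntl fell by 1.13 ± 0.255 (SE) on the log2 scale (95% interval -1.67 to -0.59; limma adjusted p = 0.0069). All 3 tested entries of the gene were called lower, but a read can enter several of them, so they are not separate measures. At 72 h, the NC samples measured 1.83, 2.89, 1.93, 2.63 and 1.66 in replicates 1, 2 and 3 combined, 4, 5 and 6, and KD 0.183, 1.08 and 1.85 in the lowest, median and highest sample. The groups overlapped through KD replicate 6 at 1.85, which lay above NC replicates 1 and 6. The difference was -1.16 ± 0.411 (SE; interval -2.04 to -0.28), which missed the threshold (limma adjusted p = 0.058) and passed it without KD 72 h replicate 6 (-1.35, adjusted p = 0.030). With 1 library left out it ran from -1.35 to -0.79. Over 26 alternatives of the processing it passed in 5, with adjusted p up to 0.37. The effects at 24 h and 72 h differed by -0.03 (interval -1.05 to 0.99; adjusted p = 0.99).

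Clock (chromosome 5 from 76209868 to 76304792, minus strand), the partner of Arntl, measured 1.85, 2.14 and 2.65 scaled RPKM (lowest, median, highest) in NC 24 h and 1.40, 1.63 and 2.18 in KD 24 h, ranges that overlapped. The difference of -0.34 ± 0.191 (SE; interval -0.74 to 0.07) did not pass the test (limma adjusted p = 0.21). At 72 h it was -0.13 (interval -0.67 to 0.41; adjusted p = 0.74), with 1.19 to 2.35 in NC and 1.09 to 2.37 in KD. Over time in control cells neither activator was called, with -0.42 for Arntl (adjusted p = 0.26) and -0.31 for Clock (adjusted p = 0.44).

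Of the period genes, whose proteins enter the repressor complex, Per3 (chromosome 4 from 151003652 to 151044665, minus strand) was lower in KD at both times and higher in NC 72 h than in NC 24 h. In NC 24 h it measured 20.6, 25.8 and 29.8 scaled RPKM (lowest, median, highest), and in KD 24 h 1.2, 7.82 and 18.6. The groups did not overlap, and KD replicate 6 at 1.2, on 11 reads, lay far below the other KD samples, while replicates 3 and 4 at 14.5 and 18.6 lay above them. The mean was 9.50 ± 6.15 (SD, n = 6) in KD and 25.7 ± 3.72 (SD, n = 6) in NC, and Per3 fell by 1.80 ± 0.468 (SE) on the log2 scale (interval -2.79 to -0.80; limma adjusted p = 0.014). Without KD 24 h replicate 6 the difference was -1.30 (adjusted p = 0.0015).

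At 72 h, Per3 measured 38.4, 39.2, 44.4, 49.5 and 34.3 scaled RPKM in NC replicates 1, 2 and 3 combined, 4, 5 and 6, and 9.0, 11.4 and 14.9 in the lowest, median and highest KD sample. The highest KD sample lay well below the lowest NC sample. The means of 11.8 ± 2.76 (SD, n = 6) and 41.1 ± 5.90 (SD, n = 5) differed by -1.82 ± 0.165 (SE) on the log2 scale (interval -2.17 to -1.46), or 0.284 times the control, with a limma adjusted p of 9.7e-06. Of the 12 entries listed for Per3, 4 of 4 tested at 24 h and 4 of 5 tested at 72 h were called lower, and these too can hold the same reads. The effects at both times differed by -0.02 (interval -1.16 to 1.12; adjusted p = 0.99). In control cells Per3 rose by 0.68 ± 0.125 (SE) between 24 h and 72 h (interval 0.41 to 0.95; adjusted p = 0.0032), and these groups did not overlap either. In the annotation Per3 lies within the span of Camta1 on the same strand and shares 0 exonic bases with it.

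Per1 (chromosome 11 from 69095217 to 69109960, plus strand), a gene induced by glucocorticoids and cAMP in many cells, showed no call. It measured 0.498, 1.36 and 1.84 scaled RPKM (lowest, median, highest) in NC 24 h and 0.141, 1.99 and 2.88 in KD 24 h, so that KD held both the lowest and the highest sample. The difference was 0.13 with a wide interval of -1.03 to 1.30 (limma adjusted p = 0.88). At 72 h it was -0.26 (interval -0.91 to 0.38; adjusted p = 0.57), and over time in control cells 0.14 (interval -0.63 to 0.91; adjusted p = 0.87).

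Per2 (chromosome 1 from 91415982 to 91459324, minus strand) was near the limit of detection, since 3 reads in the median sample are worth 0.128 RPKM for its length. It measured 0.114, 0.350 and 0.474 scaled RPKM in NC 24 h, 0.123, 0.172 and 0.261 in KD 24 h, and 0.0345, 0.0630 and 0.192 in KD 72 h (lowest, median, highest). In NC 72 h replicate 6 (the library with the lowest share of whole read numbers) was at 0 and the others at 0.152 to 0.305. The groups overlapped in every comparison. Two-sided exact permutation tests gave p = 0.078 for KD against NC at 24 h, p = 0.12 at 72 h and p = 0.14 for NC 72 h against NC 24 h (3 tests), and a difference was not detectable at this depth.

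Cry1 (chromosome 10 from 85131700 to 85185064, minus strand), a cryptochrome repressor of the Arntl and Clock dimer, was the clock gene that fell over time in control cells. It measured 1.68, 2.35 and 2.83 scaled RPKM (lowest, median, highest) in NC 24 h and 1.47, 0.981, 1.32, 0.737 and 0.842 in the samples of NC 72 h, and these groups did not overlap. The means of 2.27 ± 0.464 (SD, n = 6) and 1.07 ± 0.314 (SD, n = 5) differed by -1.03 ± 0.24 (SE; interval -1.55 to -0.52; limma adjusted p = 0.014). KD and NC were close at 24 h, with a difference of -0.02 (interval -0.51 to 0.47; adjusted p = 0.96). At 72 h KD measured 0.793, 1.51 and 2.36, overlapping NC, and the difference of 0.54 (interval -0.09 to 1.17) did not pass the test (adjusted p = 0.21). Cry2 (chromosome 2 from 92403646 to 92434043, minus strand), its paralog, was not called in any of these comparisons, with differences of -0.04 (interval -0.61 to 0.52; adjusted p = 0.92) at 24 h, 0.09 (-0.44 to 0.61; 0.84) at 72 h and 0.06 (-0.43 to 0.56; 0.91) over time.

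Both REV-ERB genes rose over time in control cells. Nr1d1 (chromosome 11 from 98767932 to 98775333, minus strand) measured 0.871, 1.33 and 1.72 scaled RPKM (lowest, median, highest) in NC 24 h and 4.07, 3.71, 4.56, 2.88 and 3.17 in the samples of NC 72 h, without overlap. The means of 1.38 ± 0.309 (SD, n = 6) and 3.68 ± 0.676 (SD, n = 5) differed by 1.37 ± 0.218 (SE; interval 0.90 to 1.83), or 2.58 times, at a limma adjusted p of 0.0012. Nr1d2 (chromosome 14 from 18204054 to 18239127, minus strand) measured 0.575, 0.982 and 1.15 in NC 24 h and 1.43, 1.59, 1.38, 1.87 and 1.80 in NC 72 h, again without overlap. It rose by 0.78 ± 0.23 (SE; interval 0.29 to 1.27), a call at the edge of the threshold (adjusted p = 0.048). It was lost when any of NC 24 h replicates 1 to 5 or NC 72 h replicates 1, 3, 4, 5 or 6 was left out (adjusted p up to 0.11).

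At 24 h neither REV-ERB gene was called between KD and NC, and at 72 h Nr1d2 was lower in KD. Nr1d1 measured 1.45, 1.68 and 2.24 scaled RPKM in KD 24 h, overlapping NC, and differed by 0.34 (interval -0.12 to 0.81; limma adjusted p = 0.26). In KD 72 h it measured 1.49, 2.50 and 4.22, where replicate 6 was the highest and lay among the NC samples. The difference of -0.51 (interval -1.02 to 0.01) did not pass the test (adjusted p = 0.15). Nr1d2 measured 0.639, 0.988 and 2.52 in KD 24 h, with a difference of 0.22 (interval -0.43 to 0.88; adjusted p = 0.63). In KD 72 h it measured 0.388, 0.955 and 1.26, all below the lowest NC 72 h sample at 1.38. The means of 0.864 ± 0.359 (SD, n = 6) and 1.61 ± 0.217 (SD, n = 5) differed by -0.92 ± 0.298 (SE; interval -1.56 to -0.28; adjusted p = 0.040). This call was lost without KD 72 h replicate 1, 5 or 6 or NC 72 h replicate 1, 4, 5 or 6 (-0.97 to -0.74; adjusted p = 0.054 to 0.087), and with the deposited RPKM (-0.69; adjusted p = 0.089).

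The change of the knockdown effect from 24 h to 72 h was tested by an interaction over all 4 groups, in which 0.207% of 59482 entries were called. None of the 9 clock genes was called in this limma fit, nor in voom on recovered reads, and 2 of them, Nr1d1 and Nr1d2, had an unadjusted p under 0.05 in limma. The difference was -0.85 for Nr1d1 (interval -1.50 to -0.20; adjusted p = 0.28) and -1.14 for Nr1d2 (interval -2.04 to -0.24; adjusted p = 0.30). Nr1d1 shares 263 exonic bases near its 3′ end (225 to 487 bases from the end) with Thra, the thyroid hormone receptor alpha gene on the other strand. Strand handling is not given in the sources used here, so reads from this stretch cannot be told apart. Thra itself differed by -0.19 (adjusted p = 0.80) between NC 72 h and NC 24 h, where Nr1d1 rose.

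Dbp, the output gene of the PAR bZIP family, was not called in any comparison and missed the threshold narrowly at 72 h. It measured 5.96, 6.47 and 10.3 scaled RPKM (lowest, median, highest) in NC 24 h and 4.91, 5.68 and 6.19 in KD 24 h, with a difference of -0.31 (interval -0.67 to 0.04; limma adjusted p = 0.19). At 72 h the NC samples spread widely, at 16.0, 10.2, 12.7, 10.1 and 6.27 in replicates 1, 2 and 3 combined, 4, 5 and 6, while KD measured 5.67, 6.90 and 8.28. NC replicate 6 at 6.27, the library with the lowest share of whole read numbers, was the one NC sample inside the KD range. The difference was -0.59 ± 0.207 (SE; interval -1.03 to -0.14; adjusted p = 0.055), and without NC 72 h replicate 6 it was -0.77 (adjusted p = 0.0081). Over 27 alternatives of the processing it passed in 4, with differences from -0.77 to -0.34 and adjusted p up to 0.25. Between NC 24 h and NC 72 h Dbp differed by 0.58 (interval 0.11 to 1.06; adjusted p = 0.12). Without NC 72 h replicate 6 it differed by 0.77 (adjusted p = 0.026), the 1 of 27 alternatives in which this comparison passed.

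The Dbp values touch a limit of the assay. The last 539 exonic bases of Dbp (chromosome 7 from 45705088 to 45710203, plus strand), where reads of a 3′ method fall, overlap exons of Sphk2, a sphingosine kinase gene on the other strand. Among 6282 genes with a mean of at least 5 scaled RPKM, ranked by how their deviations from the group means followed those of Dbp over 23 samples, Sphk2 stood first. Pearson's r was 0.83 and Spearman's rho 0.80, and r was 0.72 without the 2 samples farthest from the median. The points share library and depth, and reads of the shared stretch cannot be told apart without strand. Sphk2 differed by -0.14 (adjusted p = 0.57) at 24 h, -0.33 (adjusted p = 0.19) at 72 h and 0.27 (adjusted p = 0.42) over time in control cells, in the direction of Dbp each time and by less. The next genes by r with Dbp were Lyrm1 (0.71), 2810008D09Rik (0.69), Sfxn3 (0.67) and Ahsa1 (0.64), and the lowest were ENSMUST00000117679 (-0.72), AK143018 (-0.71) and Rps15a-ps5 (-0.70). Without the 2 farthest samples these became 0.56, 0.41, 0.58 and 0.37, and -0.47, -0.54 and -0.05, so that the relation with Rps15a-ps5 (Spearman's rho -0.24) rested on those samples.

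**Figure D3:**
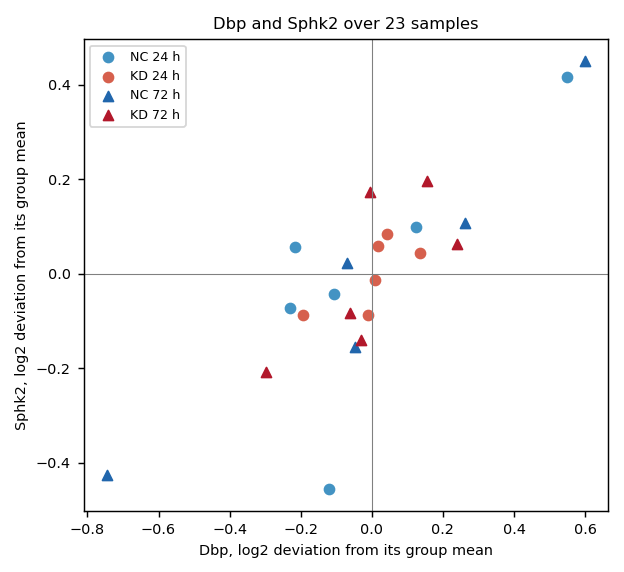
Deviation of Dbp (x axis) and of Sphk2 (y axis) from their group means, in log2 of scaled RPKM + 0.1, for 23 samples (circles 24 h, triangles 72 h). The points follow a common line (r = 0.83), and NC samples lie at both ends of it.

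The same ranking over 6283 genes was made for Nr1d1 and Arntl. Lrrc39 (0.73), Abhd3 (0.72), 2310061I04Rik (0.72), Cxx1b (0.71) and BC003331 (0.71) had the highest r with Nr1d1, and Max (-0.68), Il1rl1 (-0.67) and Dynll2 (-0.67) the lowest. Without the 2 farthest samples the former ran from 0.50 to 0.70 and the latter from -0.65 to -0.55. With Arntl the highest were Col5a1 (0.72), 9630023C09Rik (0.70), Snrpa (0.70), ENSMUST00000121582 (0.68) and Pbrm1 (0.65), and the lowest Grcc10 (-0.75), Ciapin1 (-0.74) and Cript (-0.70). Without the 2 farthest samples these became 0.60, 0.53, 0.65, 0.32 and 0.41, and -0.56, -0.60 and -0.60, and Spearman's rho with ENSMUST00000121582 was 0.26. Both Nr1d1 and Arntl rest on few reads.

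The wider clock machinery was read from 19 further genes. At 24 h, 13 of them were tested, of which Npas2 and Rorb were lower in KD and Csnk1d was higher. At 72 h 13 were tested, of which Rorb and Tef were lower and Csnk1e was higher. These 3 of 13 at each time were close to the background of 22.6% and 22.2% of all entries. In limma no gene of the 13 tested was called over time in control cells (2 had an unadjusted p under 0.05), and none of 14 in the interaction (1 had one). Their median log2 difference was 0.35 at 24 h and -0.16 at 72 h, against -0.02 and 0.01 over all entries. Arntl2, Bhlhe41, Hlf and Fbxl21 were among the genes below the filter throughout, and Rora was below it at 24 h and Timeless at 72 h and over time.

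Npas2, a paralog of Clock that can take its place beside Arntl, was the most strongly lowered of these at 24 h. It measured 3.83, 13.0 and 14.4 scaled RPKM (lowest, median, highest) in NC 24 h and 2.80, 3.6 and 5.13 in KD 24 h, with NC replicate 5 alone inside the KD range. It fell by 1.44 ± 0.301 (SE) on the log2 scale (limma adjusted p = 0.0046), and at 72 h the difference of -0.60 did not pass the test (adjusted p = 0.29). Rorb, a nuclear receptor that activates at the elements where REV-ERB represses, measured 0.789 to 1.32 in NC 24 h against 0.218 to 0.635 in KD 24 h, and 0.766 to 1.67 in NC 72 h against 0.267 to 0.734 in KD 72 h. Neither pair of groups overlapped, and Rorb fell by 1.26 ± 0.267 (SE; adjusted p = 0.0049) at 24 h and by 1.19 ± 0.295 (SE; adjusted p = 0.011) at 72 h. Rora was tested at 72 h and differed by -0.17 (adjusted p = 0.77).

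Tef, a PAR bZIP factor like Dbp, measured 2.71 to 3.72 scaled RPKM in NC 72 h and 1.5 to 3.06 in KD 72 h, and fell by 0.63 ± 0.213 (SE; limma adjusted p = 0.046). This call was lost without any of KD 72 h replicates 1 to 5 or NC 72 h replicates 1, 4, 5 or 6 (adjusted p up to 0.098) and with the deposited RPKM (-0.39; adjusted p = 0.23). The casein kinase genes Csnk1d and Csnk1e, whose products phosphorylate PER proteins, were the ones called higher. Csnk1d measured 8.27 to 22.2 in KD 24 h against 7.31 to 8.81 in NC 24 h (0.72 ± 0.225 SE; adjusted p = 0.033), a call lost without KD 24 h replicate 1, 2 or 5 or any 1 NC 24 h replicate (adjusted p = 0.051 to 0.076). Csnk1e measured 2.89 to 4.73 in KD 72 h against 1.74 to 2.50 in NC 72 h, without overlap (0.83 ± 0.19 SE; adjusted p = 0.0068). Of the E-box repressors, Bhlhe40, Ciart and Cipc were tested and none was called.

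**Figure D4:**
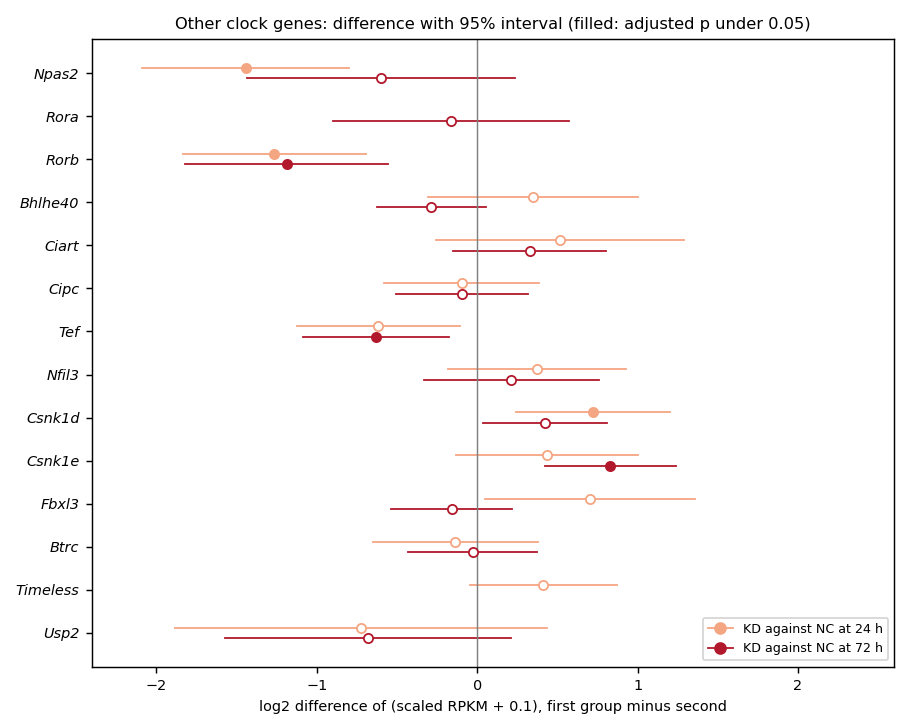
Log2 difference of KD against NC at 24 h and at 72 h (x axis, KD minus NC) with its 95% interval for the further clock genes tested at either time. Filled points have an adjusted p under 0.05: Npas2, Rorb and Csnk1d at 24 h, and Rorb, Tef and Csnk1e at 72 h.

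Libraries fell into sets of 15 and 8 samples that the groups do not explain. The sets were found from correlations of deviations over genes with a mean of at least 5 scaled RPKM, the clock genes left out. This grouping was chosen after the data were seen. Each group had 2 samples in the smaller set (KD 24 h replicates 3 and 4, NC 24 h 5 and 6, KD 72 h 5 and 6, NC 72 h 4 and 5). Within a group, some clock genes differed between these sets, not always in the same direction. In KD 24 h Per1 measured 0.141 and 0.753 scaled RPKM in the smaller set and 1.78 to 2.88 in the larger, whereas Per3 measured 14.5 and 18.6 in the smaller and 1.2 to 8.47 in the larger. Npas2 in NC 24 h was at 3.83 and 7.97 in the smaller set and at 12.3 to 14.4 in the larger, and Bhlhe40 at 10.1 and 10.3 against 20 to 30.4.

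Within the larger set Per3 differed between KD and NC by -2.27 at 24 h (limma adjusted p = 0.010) and -1.52 at 72 h (adjusted p = 9.9e-05), and within the smaller by -0.85 (adjusted p = 0.038) and -2.34 (adjusted p = 0.00014). In the smaller set the effect on Per3 at 72 h exceeded that at 24 h (-1.49, adjusted p = 0.0058), whereas in the larger set the difference was 0.75 (adjusted p = 0.58). The rise of Per3 over time in control cells was 0.66 in each set (adjusted p = 0.0062 and 0.048). For Arntl at 24 h the difference within the smaller set was -0.94 (adjusted p = 0.18), and for Npas2 -0.82 (adjusted p = 0.25), each on 2 samples a group. Over time in control cells Nr1d1 differed by 1.21 (adjusted p = 0.14) within the smaller set and kept its call in the larger, while Cry1 differed by -1.07 (adjusted p = 0.059) in the larger and by -0.94 (adjusted p = 0.31) in the smaller. A planned grouping, by the first principal component of the deviations, gave other sets. In these, Per3 at 24 h differed by -2.83 (limma adjusted p = 0.012) in the larger and -1.45 (adjusted p = 0.092) in the smaller. Arntl at 24 h differed by -0.87 (adjusted p = 0.11) in the larger and -1.25 (adjusted p = 0.13) in the smaller. What the sets stand for was not tested.

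Other calls were lost within a set by correlation, where groups hold 2 to 4 samples. Nr1d2 at 72 h differed by -0.71 (limma adjusted p = 0.19) within the larger set and -1.34 (adjusted p = 0.14) within the smaller, and over time by 0.92 (adjusted p = 0.12) and 0.51 (adjusted p = 0.57). Rorb differed by -0.76 (adjusted p = 0.36) within the smaller set at 24 h, and at 72 h by -1.03 (adjusted p = 0.069) in the larger and -1.36 (adjusted p = 0.12) in the smaller. Csnk1d at 24 h differed by 0.16 (adjusted p = 0.72) and Csnk1e at 72 h by 0.63 (adjusted p = 0.33) within the smaller set, and Tef at 72 h by -0.68 (adjusted p = 0.090) in the larger and -0.48 (adjusted p = 0.45) in the smaller.

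**Figure D5:**
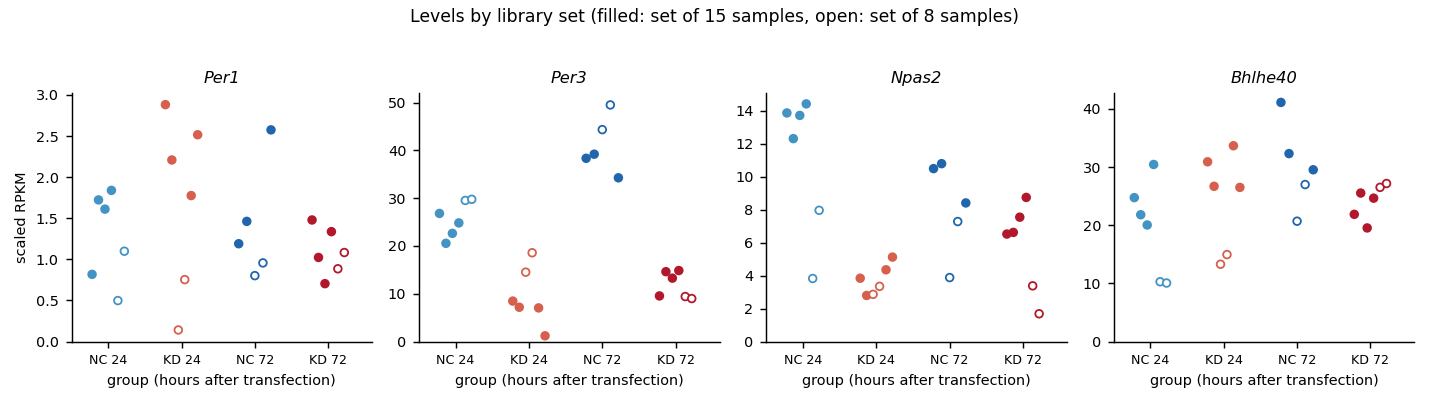
Scaled RPKM (y axis from 0) of Per1, Per3, Npas2 and Bhlhe40 in each sample by group, with filled points for the set of 15 samples and open points for the set of 8. In KD 24 h the open points lie below the filled ones for Per1 and Bhlhe40 and above them for Per3. In KD 72 h the order is reversed for Per3 and Bhlhe40.

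The comparison of NC 72 h with NC 24 h holds 48 h of further differentiation, a change to fresh medium and any difference in the hour of harvest, which cannot be told apart. KD and NC at 1 time share the time and the medium. Without the scaling between libraries, that is, with the deposited RPKM, the median log2 difference of all entries at 72 h was 0.252, and 13172 entries were called higher and 3101 lower, against 5584 and 6520 with it. In the interaction the median was 0.202 with the deposited RPKM. In this scale Per3 remained called at 72 h, and Nr1d2 and Tef were not.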

How the data were processed

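RNA of 24 libraries (6 for KD and 6 for NC at each time) was sequenced from the 3′ ends by bulk RNA barcoding and sequencing. Per the study's methods, the authors aligned to transcripts of the NCBI reference sequence database and tested with DESeq2 in the Genomatix suite; the version, genome build, filters and handling of strand are not given in the sources used here. The deposited RPKM table lists 168326 transcript entries, of which 66 carry the 10 symbols, and a read can enter several entries of a gene. It holds 31754 RefSeq, 48232 Ensembl and 88340 GenBank entries, so it is wider than the database named in the methods. No column was left unused (0).

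Read numbers and totals were recovered from the steps of the RPKM values. RPKM were scaled by a trimmed mean of log ratios (30% and 5%), and log2(scaled RPKM + 0.1) was fitted in limma 3.58.1 under R 4.3.3, with a trend on intensity and Benjamini-Hochberg adjustment over all entries. Entries entered a fit at 10 reads of the median library in a number of samples equal to the smaller group, and 15 reads overall. The scripts were tested on simulated data. Clock genes below the filter were compared by two-sided exact permutation tests. Group and replicate came from the sample titles.

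All 10 genes are named, and of the 19 further clock genes, with Ciart and Cipc found under older symbols, those called or at the ends of the range. Of the 19, 1 is not reported here by name. Likeness rankings name the 5 highest and 3 lowest genes. Gene lists, members and motifs were chosen with earlier results of these data known. Positions and exon overlaps came from GENCODE M21, and promoters from RefSeq. Alternatives were the pseudocount, filter, scaling, voom on recovered reads, 1 entry per symbol, a replicate block, library sets and leaving out each library. The grouping into sets by correlation was chosen after the data were seen. Thra and Sphk2 were looked up after their overlap with Nr1d1 and Dbp had been found.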

Additional observations from a re-analysis of the deposited data

Results flagged for a closer look

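Nr1d2 in KD 24 h replicate 6 measured 2.52 scaled RPKM, while the other 5 samples of the group lay between 0.639 and 1.2. The gap to the nearest sample was 0.702 of the range of the group. Of the 40 groups of values checked (10 genes in 4 groups) this was the 1 with a sample so far from the others, and chance gives such a sample in about 1 of 20 groups. The library was the shallowest of the series.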

How the results depend on the processing

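The call of Per3 between KD and NC was kept at 72 h in 27 of 27 alternatives and at 24 h in 26 of 27, and its rise in control cells in 27 of 27. Of the others, the calls held for Arntl at 24 h in 23 of 26, Nr1d1 over time in 24 of 26, Cry1 over time in 21 of 26, Nr1d2 at 72 h in 12 of 26 and over time in 10 of 26. Sign changes were seen in 68 values, all uncalled and of differences smaller than their own SE before the alternative was applied. Larger differences changed sign in 0 values. The changed values themselves ran from -0.9 to 0.21 at 24 h and from 0 to 0.15 at 72 h. They ran from -0.4 to -0.07 over time and from -0.16 to 1.29 in the interaction. Where a call was lost the cause was not tested, except that the sets of libraries and the leaving out of libraries hold fewer samples. Low read numbers limit what can be seen of Per2 and of the genes below the filter.

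The sets by first component split the samples by their sign on the first principal component of the deviations from group means. The highest value was 0.816 in KD 24 h replicate 6, the shallowest library. KD 72 h replicates 2 and 6 lay at 0 when rounded, in different sets. KD 72 h replicates 3 and 4 lay at -0.016 and 0.003, and NC 24 h replicate 1 at 0.01. The place of all these samples in a set was close to arbitrary. The number of clock genes called at 24 h, 2, became 1 with a filter of 30 reads (which Arntl did not pass), 1 in the larger set by first component, 0 in the smaller (limma, with 2 at an unadjusted p under 0.05) and 1 in the smaller set by correlation. At 72 h it became 1 without a filter, 1 with deposited RPKM, 4 with voom, 4 with the first-component set as a term, 1 in each of the 4 sets alone, and 1 to 2 when 1 library was left out. Over time it was 4 and became 2 without a filter, 1 with the filter of 30 reads, 2 in the larger sets and 1 in the smaller. In the interaction it was 0 and became 1 (Per3) in the smaller correlation set.

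Over all entries, 1 entry per symbol gave 2613 calls at 24 h, 2793 at 72 h, 1058 over time and 48 in the interaction. The smaller first-component set gave 531, 1573, 1704 and 0 (5783 at an unadjusted p under 0.05 in limma), and the smaller correlation set 1512, 5715, 1704 and 1805. In the interaction, with 123 calls, the number was 205 with a pseudocount of 0.5, 250 with 1, 777 with deposited RPKM, 265 and 409 with the sets by first component and by correlation as a term, 4165 and 867 in the larger sets, and 56 to 180 when 1 library was left out. With deposited RPKM 54.0%, 80.9% and 96.1% of calls at 24 h, at 72 h and in the interaction were higher, against 46.7%, 46.1% and 64.2%.

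Replicate numbers did not pair the samples (mean correlation of deviations -0.05 for KD and NC at 24 h, 0.01 at 72 h and 0.02 for NC over time, none of these comparisons with every pair above 0.1). With the replicate block, calls over all entries were 8701 at 24 h, 8162 at 72 h, 2847 over time and 34 in the interaction, and 1 clock gene (Per3) was called at 72 h. In comparisons with NC 72 h the number 3 has no partner in this fit. Nr1d2 lost its call at 72 h (-1.04, limma adjusted p = 0.063) and over time (0.73, adjusted p = 0.16), as did at 72 h Rorb (-1.08, adjusted p = 0.054), Tef (-0.66, adjusted p = 0.12) and Csnk1e (0.80, adjusted p = 0.054). The other calls of clock genes were kept.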
